A study of Mus musculus with 17 samples.

Results

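Sterol regulatory element-binding proteins (SREBPs) are the transcription factors that switch on the enzymes of cholesterol and fatty acid synthesis, and their genes and targets were followed here in the extensor digitorum longus (EDL), a fast-twitch hindlimb muscle, of 17 aged mice. The 8 genes were chosen by symbol as SREBP factors and targets, out of 36172 gene loci in the table. They are the factor genes Srebf1 and Srebf2, the retention factor gene Insig1, the cholesterol pathway enzyme genes Hmgcs1, Idi1, Fdft1 and Sqle, and the desaturase gene Scd1. All 8 were found and all 8 passed the filter on low counts. They were proposed with results of these same samples known, and which values, if any, entered that choice is not recorded. Tests over all genes are therefore given beside each gene as a description.

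The study compared mice treated with a Hand2 vector with mice given an empty vector; Hand2 encodes a factor that sympathetic neurons need, and the title names keeping those neurons in aging. The 10 empty vector animals were 5 females, of which 2 were 22 months old and 3 were 23 months old, and 5 males, of which 1 was 22 months old and 4 were 23 months old. The 7 Hand2 vector animals were 3 females of 22 months, 1 female of 23 months, 1 male of 22 months and 2 males of 23 months. The sources used here do not give strain, other alleles, or the vector's promoter, route and timing, and all groups were aged, so no young animal is compared. Each library is 1 animal. Library totals ran from 19181208 to 30942818 estimated counts, and values are CPM, counts scaled to library size with edgeR's TMM factors. Hand2 itself was 0.438 CPM ± 0.249 (SD, n = 10) with the empty vector, from 0.0711 to 0.920, and 6.504 CPM ± 9.31 (SD, n = 7) with the Hand2 vector, from 1.02 to 26.3, so the groups did not overlap. Fast-fibre genes made up 90520 to 115700 CPM per library and slow-fibre genes made up 135 to 1456 CPM. In whole muscle, fewer cells of a type and less RNA per cell cannot be told apart.

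SREBPs are made as membrane proteins of the endoplasmic reticulum. When sterols are plentiful, Insig proteins hold them there through their escort Scap. When sterols are scarce, Scap carries them to the Golgi, where the proteases encoded by Mbtps1 and Mbtps2 free the active part. Srebf2 encodes SREBP-2, which mainly drives cholesterol synthesis and uptake. Srebf1 encodes SREBP-1a and SREBP-1c, which drive fatty acid synthesis, SREBP-1c in response to insulin and feeding. The table counts both under 1 locus. In muscle SREBP-1c is known as an insulin-responsive factor.

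SREBPs bind sterol response elements, usually beside CCAAT boxes (bound by NF-Y) or GC boxes (bound by Sp1). RefSeq windows of 300 bases, from 250 before to 50 after a gene start in GRCm38.p6, were found for 5 of the 8 genes. The windows of Srebf2, Insig1, Hmgcs1 and Idi1 are shown as those of a factor, its retention partner and 2 enzymes of the cholesterol pathway. Capitals mark matches on either strand to TCACNCCAC (a sterol response element), CACGTG (an E-box) or CCAAT, and each line gives the coding strand of its gene. In order, they lie on the plus strand at chr15:82147019-82147318, chr5:28071162-28071461, chr13:119690101-119690400 and chr13:8885356-8885655.
Srebf2: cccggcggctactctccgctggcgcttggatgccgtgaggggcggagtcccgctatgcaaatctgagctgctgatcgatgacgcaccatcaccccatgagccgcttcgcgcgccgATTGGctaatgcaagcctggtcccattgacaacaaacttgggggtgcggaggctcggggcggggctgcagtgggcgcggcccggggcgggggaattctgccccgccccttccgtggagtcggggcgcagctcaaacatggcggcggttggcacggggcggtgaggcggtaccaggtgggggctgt
Insig1: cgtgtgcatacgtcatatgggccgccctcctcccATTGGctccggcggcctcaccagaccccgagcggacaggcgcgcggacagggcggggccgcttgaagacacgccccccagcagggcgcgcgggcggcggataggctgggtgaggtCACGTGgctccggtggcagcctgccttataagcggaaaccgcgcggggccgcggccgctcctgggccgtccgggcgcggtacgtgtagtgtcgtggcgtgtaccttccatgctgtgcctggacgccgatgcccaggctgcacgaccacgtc
Hmgcs1: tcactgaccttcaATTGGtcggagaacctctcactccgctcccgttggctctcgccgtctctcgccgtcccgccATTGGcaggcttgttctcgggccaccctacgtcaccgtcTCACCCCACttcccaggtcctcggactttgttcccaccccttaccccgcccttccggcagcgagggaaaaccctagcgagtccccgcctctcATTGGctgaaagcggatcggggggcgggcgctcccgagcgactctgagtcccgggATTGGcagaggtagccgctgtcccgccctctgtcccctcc
Idi1: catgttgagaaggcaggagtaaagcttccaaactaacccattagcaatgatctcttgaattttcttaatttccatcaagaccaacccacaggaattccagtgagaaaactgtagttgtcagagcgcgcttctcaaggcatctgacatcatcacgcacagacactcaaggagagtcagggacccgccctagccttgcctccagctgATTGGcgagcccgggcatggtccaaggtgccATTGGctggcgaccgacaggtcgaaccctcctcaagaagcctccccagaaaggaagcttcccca
The Hmgcs1 window held TCACCCCAC at -137 to -129 from the start site, counted as 0, between CCAAT boxes, of which the window had 4. TCACNCCAC was found in 1.24% of 32851 mouse windows of this length. The Insig1 window held CACGTG at -101 to -96, a motif found in 7.15% of windows, with 1 CCAAT box. The Idi1 window held 2 CCAAT boxes and the Srebf2 window 1, and 37.4% of all windows held at least 1. GC boxes, spelled GGGCGG on either strand and left in lower case, numbered 5 in the Srebf2 window, 3 in that of Insig1, 3 in that of Hmgcs1 and 1 in that of Idi1, against 35.7% of windows with any. No match overlapped a match to another of these motifs. Srebf1 had 3 windows, 1 for each of 3 annotated starts, and none held TCACNCCAC. These are matches of letters, and binding was not measured.

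The table places the 8 loci, on mm10, at chr11:60199089-60220604 (Srebf1), chr15:82147269-82204960 (Srebf2), chr5:28071412-28078662 (Insig1), chr13:119690462-119708077 (Hmgcs1), chr13:8885606-8892396 (Idi1), chr14:63145150-63177793 (Fdft1), chr15:59315092-59331193 (Sqle) and chr19:44394450-44407709 (Scd1). Srebf1, Fdft1 and Scd1 lie on the minus strand and the others on the plus strand. Scd1 has close paralogs beside it, and how reads shared between them were counted is not known here.

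Per kilobase of exon the 8 genes spanned a wide range of level. Fdft1, the squalene synthase gene at the branch point to sterols, stood highest at 22.8 CPM per kb ± 2.43 (SD, n = 17). Hmgcs1, the cytosolic HMG-CoA synthase gene, followed at 10.9 ± 0.650 CPM per kb, Srebf1 at 10.8 ± 2.75 and Scd1 at 9.54 ± 5.27. The levels of those 3 did not differ beyond their spread. Insig1 at 5.41 ± 1.14 and Idi1, the isopentenyl diphosphate isomerase gene, at 4.64 ± 0.655 CPM per kb overlapped each other. Srebf2 was lower, at 2.85 ± 0.618, and Sqle, the squalene epoxidase gene, lowest at 0.329 ± 0.223 CPM per kb. Sqle rested on only 20 to 118 estimated counts per library, whereas Fdft1 had 1639 to 3268. The genes also differed in how much animals varied. The coefficient of variation over all 17 was 5.99% for Hmgcs1, 10.7% for Fdft1, 14.1% for Idi1, 21.0% for Insig1, 21.6% for Srebf2, 25.5% for Srebf1, 55.2% for Scd1 and 68.0% for Sqle.

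**Figure D1:**
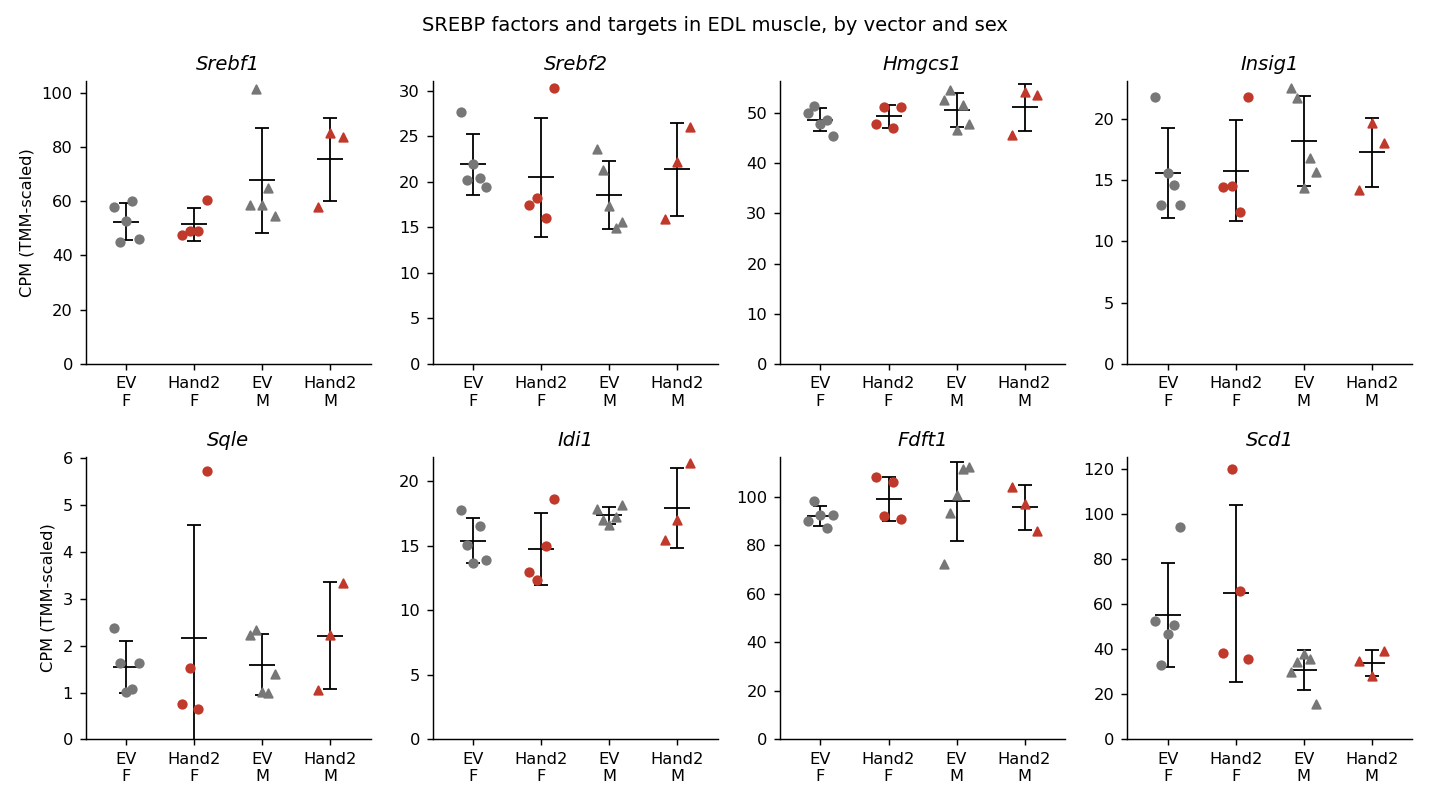
TMM-scaled CPM of each of the 8 genes in every animal, with points by vector and sex and bars for mean and SD; each panel has its own axis from 0. Vector groups overlap in all 8 panels, Srebf1 is higher in males at 70.6 against 51.9 CPM, and 1 Hand2 vector female stands at 5.73 CPM for Sqle.

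The vector comparison found no called change in any of these genes. Of the 8 genes, 0 passed the edgeR quasi-likelihood test at an adjusted p under 0.05, beside 0% of all 13965 genes tested, and 0 of the 8 had an unadjusted p under 0.05, which 705 of all genes had. DESeq2 called 1 gene of all tested and limma-voom 0, none of them an SREBP gene of the 8. Their log2 fold changes, Hand2 vector over empty vector, ran from -0.03 to 0.45 with a median of 0.04, against a median of -0.0041 over all genes. Adjusted p-values ran from 0.93 to 0.994.

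Among the factors, Srebf1 stood at 44.7, 58.2 and 102 CPM (lowest, median, highest) with the empty vector and at 47.7, 57.8 and 85.1 with the Hand2 vector. Srebf2 stood at 15.0, 20.3 and 27.7 CPM with the empty vector and at 15.9, 18.3 and 30.3 with the Hand2 vector. For both genes the ranges overlapped almost wholly. The log2 fold change was 0.06 ± 0.12 (SE; 95% interval -0.20 to 0.32) for Srebf1 and 0.04 ± 0.14 (-0.27 to 0.34) for Srebf2. Insig1, the retention factor and itself an SREBP target, stood at 12.95, 15.6 and 22.6 CPM against 12.4, 14.6 and 21.8, with a log2 fold change of -0.03 ± 0.14.

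Of the enzymes of the cholesterol pathway, Hmgcs1 was the most tightly bounded: its log2 fold change was 0.02 ± 0.05 (-0.08 to 0.11, 95% interval). Its levels were 45.4, 49.4 and 54.6 CPM with the empty vector and 45.7, 51.2 and 54.2 with the Hand2 vector. The groups overlapped over nearly the whole of that narrow range. Idi1 stood at 13.7, 16.8 and 18.2 CPM against 12.4, 15.5 and 21.4, a log2 fold change of -0.01 ± 0.09 (-0.20 to 0.17). Fdft1 stood at 72.5, 93.1 and 112 CPM against 85.8, 97.3 and 108, a log2 fold change of 0.04 ± 0.08 (-0.12 to 0.20).

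Sqle, which makes squalene epoxide and is often rate-limiting, was the least certain, at 0.988, 1.51 and 2.38 CPM against 0.649, 1.51 and 5.73. The medians were equal, and its log2 fold change of 0.45 ± 0.40 (95% interval -0.39 to 1.28) leaned on the Hand2 vector female at 5.73 CPM: without that animal, replicate 5, it was -0.07. Among the 4 Hand2 vector females Sqle was 0.649, 0.747, 1.51 and 5.73 CPM, and among the 3 Hand2 vector males 1.06, 2.23 and 3.35. The 5 empty vector females had 1.005, 1.08, 1.63, 1.63 and 2.38 and the 5 empty vector males 0.988, 1.02, 1.40, 2.23 and 2.33. Each vector thus held both low and high animals of either sex. Scd1, which makes monounsaturated fatty acids, stood at 15.6, 37.0 and 94.5 CPM with the empty vector and 27.99, 38.5 and 120 with the Hand2 vector. Its log2 fold change was 0.19 ± 0.27 (95% interval -0.38 to 0.76), and -0.05 without Hand2 vector replicate 2, the animal at 120 CPM.

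Within females the 8 log2 fold changes between vectors ran from -0.10 to 0.44, within males from -0.08 to 0.45, and the difference of the effect between sexes from -0.14 to 0.30. In each of these 3 comparisons 0 of the 8 genes were called by edgeR, beside 0% of all genes, and 0 of the 8 had an unadjusted p under 0.05, which 824, 397 and 474 of all genes had. DESeq2 called 7, 1 and 0 of all genes there, and none of the 8.

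**Figure D2:**
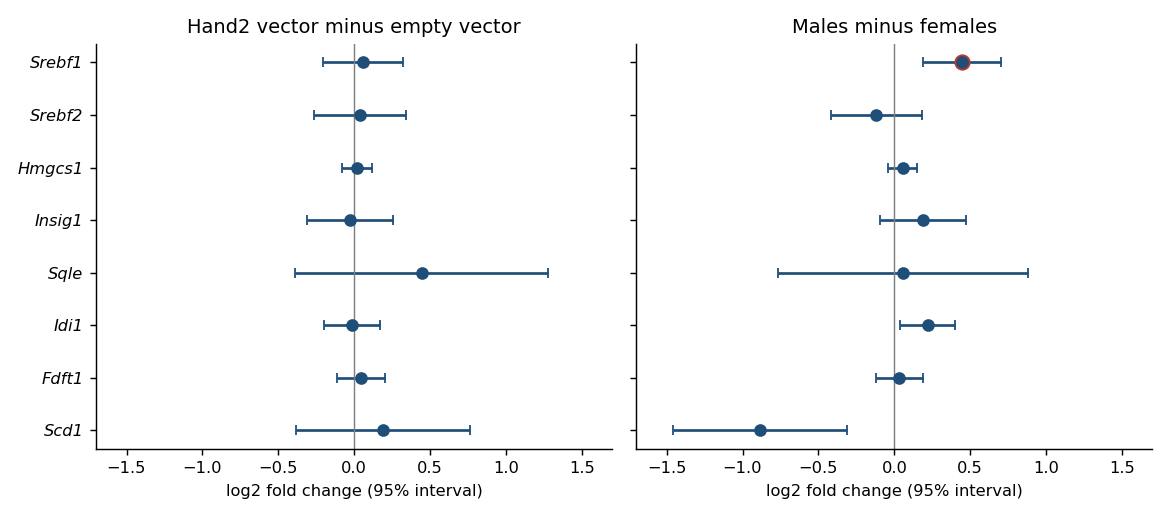
Log2 fold change of each of the 8 genes with its 95% interval, from edgeR fits over all genes. The panels give Hand2 vector minus empty vector and males minus females, and the larger red point passed an adjusted p of 0.05. All vector intervals include 0, and Srebf1 alone is red, at 0.45 between the sexes.

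Between the sexes, Srebf1 rose in males and was the only one of the 8 called. It stood at 51.9 CPM ± 6.09 (SD, n = 9) in females, from 44.7 to 60.3 with a median of 48.9, and at 70.6 ± 17.2 (SD, n = 8) in males, from 54.7 to 102 with a median of 61.8. The 4 highest males, at 102, 85.1, 83.6 and 64.9 CPM, lay above every female, while the other 4 lay between 54.7 and 58.8 and overlapped the females. The log2 fold change, males over females, was 0.45 ± 0.12 (SE; 95% interval 0.19 to 0.70; edgeR adjusted p = 0.0421). One of 8 genes called compares with 5.63% of all genes called, 2.91% higher and 2.72% lower in males, so with 8 genes the count is near the background. The call is marginal: it was lost without any 1 of empty vector replicates 2, 3, 5, 7 and 9 or Hand2 vector replicates 1, 2, 3, 6 and 7, with adjusted p-values up to 0.0882 and log2 fold changes of 0.34 to 0.49 over all 17 such fits. With age in the fit it was 0.35 (adjusted p = 0.0927), and within 22 months only 0.18 (adjusted p = 0.955). Srebf1 averaged 51.5 CPM ± 5.23 (SD, n = 7) at 22 months, where 5 of 7 animals were female, and 67.2 ± 17.2 (SD, n = 10) at 23 months. The 3 highest males also share a form of sample title, a sex letter and a number of 10 or above, described with the relations across animals. With that as a term, added after seeing the data, the difference was 0.38 (edgeR adjusted p = 0.0485).

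Scd1 was lower in males but was not called. It stood at 59.7 CPM ± 29.5 (SD, n = 9) in females and 32.0 ± 7.65 (SD, n = 8) in males. All 8 males lay at or below 39.4 CPM, while 3 females, at 32.9, 35.5 and 38.5, lay within their range and 2, at 94.5 and 120, far above it. The log2 fold change was -0.89 ± 0.27 (SE; 95% interval -1.46 to -0.31; edgeR adjusted p = 0.0687), and DESeq2 gave an adjusted p of 0.0176. Without Hand2 vector replicate 5, edgeR called it too (adjusted p = 0.0449). Of 10 adipocyte markers, 6 fell in males, beside 2.72% of all genes, among them Adipoq at -1.22 ± 0.29, Plin1 at -1.29 ± 0.31 and Cidec at -1.60 ± 0.31 (edgeR adjusted p = 0.023, 0.024 and 0.00576). The other 4 were not called: Cidea gave 1.08 ± 0.40 (edgeR adjusted p = 0.124), Fabp4 0.13 ± 0.12, Cfd -0.90 ± 0.30 and Pparg -0.33 ± 0.15. Adipoq averaged 4.91 CPM in females and 2.14 in males, and all 10 markers were above 0 in every library. Summed over the list, CPM ranged from 182 to 342 in females and 187 to 331 in males, a sum made up mostly of Fabp4 (189 CPM in females, 209 in males), which endothelial cells also express. Across the 17 animals, with vector-by-sex means removed, Scd1 and that sum had r = -0.015 (rho 0.054; permutation p = 0.961, adjusted p = 0.972 for r), and r = 0.604 without the 2 animals farthest from the median sum. Taken singly, the 10 markers had r with Scd1 from -0.278 (Fabp4) and -0.217 (Pparg) to 0.783 (Cidec), with Cidea at 0.208 and Adipoq at 0.623. The part of fat cells in the Scd1 difference was not tested. Slow-fibre genes also fell in males, 7 of 7 beside the same 2.72%, with sums of 282 to 1456 CPM in females and 135 to 326 in males.

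The other 6 genes were not called between the sexes. Idi1 gave 0.22 ± 0.09 (edgeR adjusted p = 0.14) and Insig1 0.19 ± 0.13. Srebf2 gave -0.12 ± 0.14, Hmgcs1 0.06 ± 0.05, Fdft1 0.03 ± 0.07 and Sqle 0.06 ± 0.39, with adjusted p-values of 0.437 to 0.954 for these and Insig1.

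The wider pathway was read from 5 lists with 81 genes in the table, of which 79 passed the filter. Between vectors 0 of the 79 were called, and the smallest p-values went to Mbtps1, the Golgi protease gene, at 0.12 ± 0.04 (edgeR adjusted p = 0.921), and Lrp1, a lipoprotein receptor gene, at 0.25 ± 0.11 (adjusted p = 0.921). Between the sexes, 0 of 20 cholesterol synthesis enzymes and 0 of 19 fatty acid synthesis genes were called, with median log2 fold changes of 0.04 and -0.01. The closest of the enzymes to a call was Hsd17b7, higher in males at 0.64 ± 0.19 (edgeR adjusted p = 0.0537). DESeq2 called it (adjusted p = 0.00933), as did 10 of 29 alternatives in all. Among 14 sensing and processing genes Srebf1 rose and Nr1h2, the liver X receptor beta gene, fell, by 0.19 on the log2 scale (edgeR adjusted p = 0.0196), from 68.5 to 59.8 CPM.

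Among 14 uptake and transport genes, Vldlr, the very-low-density lipoprotein receptor gene, was the only one called, rising in males from 320 CPM ± 56.5 (SD, n = 9) to 484 ± 55.9 (SD, n = 8). The lowest male, at 412 CPM, stood just above the highest female, at 410, so the sexes did not overlap, and the log2 fold change was 0.61 ± 0.10 (edgeR adjusted p = 0.00104). Of 12 triglyceride and phospholipid genes 3 were called. Over all 5 lists that makes 6 of 79 genes, near the 5.63% called among all genes. Chpt1, the choline phosphotransferase gene, rose from 134 to 163 CPM, also without overlap (log2 fold change 0.28 ± 0.04, edgeR adjusted p = 0.000306). Chka, the choline kinase gene, and Agpat9, a glycerol-phosphate acyltransferase gene, fell by 1.15 and 1.01 on the log2 scale (edgeR adjusted p = 0.00897 and 0.0466). Chka moved from 6.23 to 2.81 CPM, and without empty vector replicates 3, 4 and 5 it was -0.83 (adjusted p = 0.0877). Agpat9 moved from 11.7 to 5.74 CPM, its call was lost without any 1 of empty vector replicates 3, 4, 6, 7, 8 and 9 or Hand2 vector replicates 1, 2, 3, 6 and 7, and without empty vector replicates 3, 4 and 5 its fold change was -0.51 (adjusted p = 0.16). Among the 7 animals of 22 months none of the 6 pathway genes called between the sexes passed, and among the 10 of 23 months Srebf1, Nr1h2 and Agpat9 did not.

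**Figure D3:**
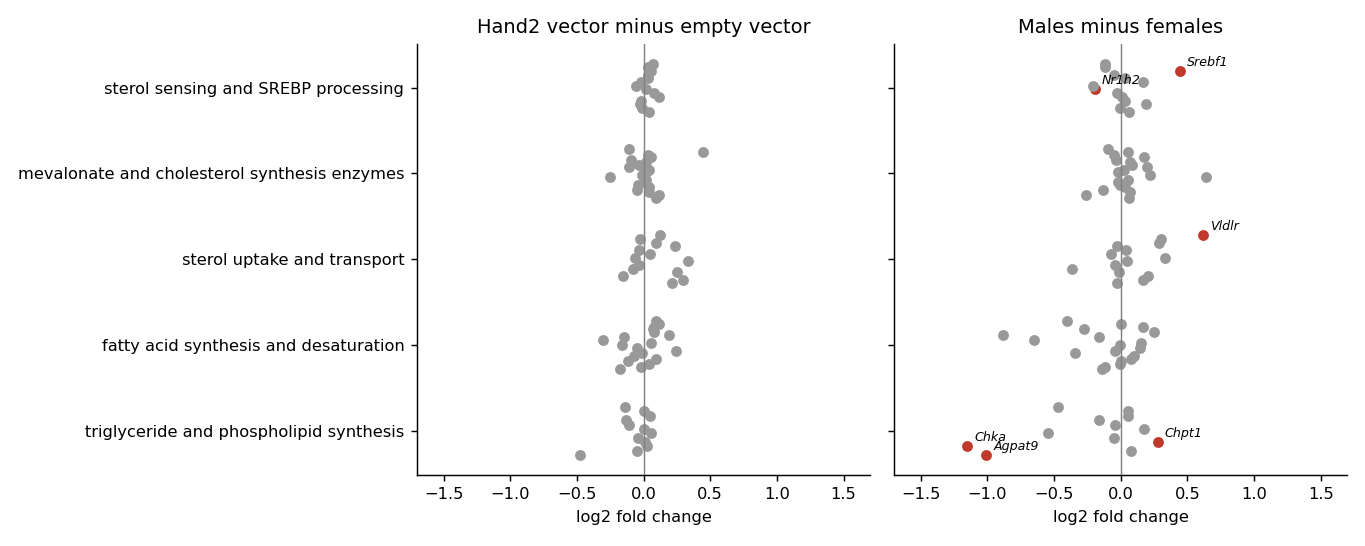
Log2 fold changes of the 79 tested genes in the 5 SREBP pathway lists, for the vector and the sex comparison, 1 point per gene; red points passed an adjusted p of 0.05 over all genes. The vector side has no red point, and the sex side has 6, with 3 above and 3 below 0.

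Across animals, the genes varied together in part. With the means of the 4 vector-by-sex groups removed, Srebf2 correlated with Insig1 at r = 0.895 (rho 0.819) and with Sqle at r = 0.887 (rho 0.836), and Insig1 with Sqle at r = 0.776 (rho 0.735), over 17 animals. Fdft1 ran the other way from Srebf2, at r = -0.729 (rho -0.801). These 4 of 28 pairs passed a permutation test, within groups and adjusted over 108 relations, with adjusted p = 0.0128, 0.0112, 0.0238 and 0.0112 for r, and 0.0214, 0.0214, 0.0366 and 0.0214 for rho. The raw p-values for r were 0.00062, 0.0003, 0.00154 and 0.00031. Leaving out the 2 animals farthest from the median, r was 0.838, 0.816, 0.655 and -0.701. Scd1 passed with none of the other 7. The share of all gene pairs that would pass was not computed, so the count cannot be called particular to these genes. The genes were chosen with results of these samples known, so these p-values too are only a description. In a search over all genes tested, other genes came closer still, such as Zhx2 with Srebf2 at r = 0.955 and Tnrc18 with Insig1 at 0.939.

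The genes were also set against a summed list of 7 fasting-type lipid oxidation genes (Pdk4, Ucp3, Angptl4, Cpt1b, Acot1, Acot2 and Plin5), which muscle is known to raise in fasting. Sqle gave r = -0.830 (rho -0.784), Hmgcs1 -0.809 (-0.841), Srebf2 -0.798 (-0.787) and Insig1 -0.758 (-0.750), over 17 animals. Their permutation p-values for r, raw and then adjusted over 108 relations, were 0.00052 and 0.0128 for Sqle and 0.0001 and 0.0108 for Hmgcs1. They were 0.00238 and 0.0321 for Srebf2 and 0.00325 and 0.039 for Insig1. For rho the adjusted values were 0.0253, 0.00432, 0.0214 and 0.0335 in that order. Without the 2 farthest animals r was -0.763, -0.805, -0.714 and -0.645. Srebf1 gave -0.675 (adjusted p = 0.0775, permutation), Idi1 -0.555, Fdft1 0.356 and Scd1 0.195, and none of those passed. Of the 13958 genes tested outside that list, 2.21% had r below -0.7, and 4 of the 8 did. Among the 16 further cholesterol enzymes 1 did, Fdps, the farnesyl diphosphate synthase gene, at -0.779. Sqle also correlated with the summed circadian clock genes, at r = -0.670 (rho -0.728; permutation p = 0.00071 and adjusted p = 0.0128 for r; r = -0.716 without the 2 farthest animals, and -0.128 and -0.403 within the title sets described next). Thus 5 of 80 relations between the genes and 10 summed lists passed. The genes and lists were chosen with earlier results of these data known, so these p-values serve only as a description. The permutations also moved animals across the title sets described next. The share of all genes that would pass was not computed, for the clock list or the others.

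**Figure D4:**
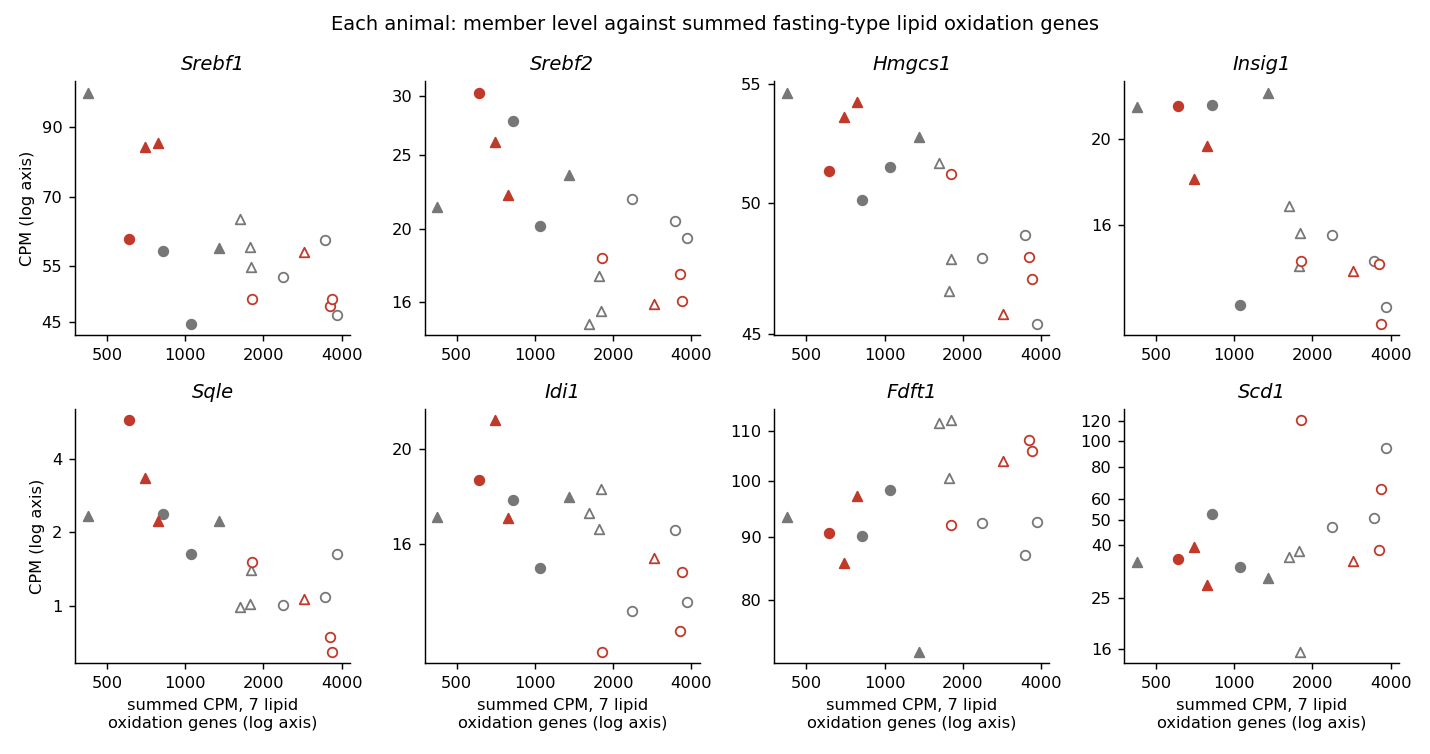
Level of each gene against the summed CPM of 7 fasting-type lipid oxidation genes, both on log axes, 1 point per animal; filled points are the 7 animals whose titles carry a sex letter and a number of 10 or above, open points the other 10. Filled points sit at 421 to 1353 CPM on the horizontal axis and open points at 1622 to 3856; red is the Hand2 vector, grey the empty vector, circles are females and triangles males.

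That relation coincides with how samples were titled. The 7 animals whose titles hold a sex letter and a number of 10 or above, 4 with the empty vector and 3 with the Hand2 vector, had a fasting-type sum of 421 to 1353 CPM, against 1622 to 3856 in the other 10, so the sets did not overlap. Srebf2 stood at 20.2 to 30.3 CPM in the 7 and 15.0 to 21.9 in the 10, Insig1 at a median of 21.7 and 14.5 with overlapping ranges, and Sqle at 1.63 to 5.73 and 0.649 to 1.63. Hmgcs1 stood at 50.1 to 54.6 in the 7 and 45.4 to 51.6 in the 10, whereas Fdft1 was lower in the 7, at 72.5 to 98.3 against 87.0 to 112. The labels do not say what the title numbers stand for, and their part in the relations was not tested beyond the values within each set. Those values had the vector-by-sex group means of all animals removed, and group means were not removed again within a set. Differences between the groups within a set can therefore remain in them. Their permutations also moved animals across vector and sex within a set, unlike the test over all animals. Within the 7 animals, an exact permutation test gave r = -0.137 for Hmgcs1 (p = 0.777), -0.263 for Srebf2 (p = 0.574), -0.282 for Insig1 (p = 0.538) and -0.551 for Sqle (p = 0.199). Within the 10, a permutation test gave -0.712 for Hmgcs1 (p = 0.0205), -0.549 for Srebf2 (p = 0.0982), -0.512 for Insig1 (p = 0.131) and -0.462 for Sqle (p = 0.175). Of these 4 genes, Hmgcs1 alone had an unadjusted p under 0.05 within a set, among 36 relations computed in each. The split was noticed after seeing the data, and all 4 Hand2 vector animals of 22 months are among the 10. The Srebf2 pairing with Insig1 and Sqle was seen in the 7 animals (r = 0.831 and 0.876, exact permutation p = 0.0238 and 0.00675) and gave r = 0.524 and 0.412 in the 10 (permutation p = 0.12 and 0.236). Insig1 with Sqle gave r = 0.617 in the 7 (exact permutation p = 0.157) and 0.202 in the 10 (permutation p = 0.569). Srebf2 with Fdft1 gave r = -0.595 in the 7 (exact permutation p = 0.156) and -0.638 in the 10 (permutation p = 0.0466).

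By r over the 17 animals, the genes most like each of the 8 were mostly outside sterol synthesis. They were Scd2, another desaturase gene, at 0.863 for Srebf1; Zhx2 at 0.955 for Srebf2; Tnrc18 at 0.939 for Insig1; and Mkl1 at 0.908 for Sqle, which had Srebf2 among its top 3, at 0.889. For Hmgcs1 it was 3110062M04Rik at 0.872, for Idi1 Klhl3 at 0.919, and for Fdft1 Chmp1a at 0.849. For Scd1 it was Cyp2e1 at 0.835, then Cebpa, a fat-cell factor gene, at 0.820. Each was sought among all 13965 genes that passed the filter, of which only 79 were in the pathway lists. That most of them lie outside the lists is therefore no result about the 8.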

How the data were processed

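RNA of EDL muscle from 17 mice was prepared with an Illumina TruSeq v2 kit and mapped to mm10, per the labels' protocols and the submitters' processing notes. The sources used here do not give the aligner, the counting tool or the use of strand. Per the file headers, the table comes from a re-alignment to RefSeq. The authors deposited estimated counts per gene locus, without scaling, of which 25.5% to 29.3% of values above 0 were whole within 0.001. They also deposited normalized log2 values, used here only in an alternative.

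Estimated counts were rounded. Genes were filtered by filterByExpr on vector and sex, leaving 13965 of 36172, and scaled by TMM. The test was edgeR's robust quasi-likelihood F test (version 4.0.16, under R 4.3.3), with Benjamini-Hochberg adjustment at 5% over all genes tested. Vector and sex effects came from 1 model with both terms, and effects within a sex and their difference from a model of 4 groups. The SE is the log2 fold change divided by the square root of F. CPM on a log2 scale used a prior count of 2, and 3 counts equal 0.0967 to 0.157 CPM. Intervals cover the spread between animals, and reads carry no molecular identifiers. Levels per kb used union exons of GENCODE vM21 (GRCm38). All correlations across animals had the 4 group means removed. Those tested by permutation used log2 CPM without a prior count, so their r can differ slightly from the others. They had 100000 permutations within groups, except those within title sets. The fit was tested on simulated counts without sex or title-set differences. Changes between vectors were planted only in genes of higher level than Sqle, so that test does not bear on Sqle or on the title sets.

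The members and gene lists were chosen with earlier results of these data known, and some genes, left out of the lists whatever their values, are not reported here. Beyond the members, named genes were those of the pathway lists called in a comparison or among its 3 smallest p-values, the markers of highest mean or called, and the 3 genes of highest correlation with each member. Alternatives were DESeq2 1.42.0, limma 3.58.1, other scalings and filters, an age term, each age alone, leaving out each animal or empty vector replicates 3, 4 and 5, and a title-set term added after seeing the data. Replicate numbers were given in accession order, so they mark no pairs.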

Additional observations from a re-analysis of the deposited data

Results flagged for a closer look

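Single animals stood far from the rest of their group in 7 of 40 group checks. The rule flags about 1 in 20 by chance when checks are independent and values normally spread. These checks overlapped, as the vector groups contain the groups by vector and sex, and they used CPM without logs. The 7 flags therefore do not measure an excess over chance. Hand2 vector replicate 5, a female of 23 months, stood far above the other 3 Hand2 vector females for 3 genes: Srebf1 at 60.3 CPM (next 48.9), Srebf2 at 30.3 (next 18.3) and Sqle at 5.73 (next 1.51). It was also the highest of the 4 for Insig1, Idi1 and Hmgcs1, without standing as far apart. The other 3 females were 22 months old and were among the animals with other titles, whereas replicate 5 had a sex letter and a number of 10 or above. Its fasting-type sum was 609 CPM, against 3614, 1808 and 3681 in the other 3. Among these females age and title set cannot be told apart. Empty vector replicate 7, a male, had Srebf1 at 101.5 CPM, against 64.9 for the next animal both in the empty vector group and among its males. Scd1 was high in empty vector replicate 5, at 94.5 CPM (next 52.5), and in Hand2 vector replicate 2, at 120 CPM (next 65.7), both females.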

How the results depend on the processing

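The count of called genes between vectors was 0 of 8 under all 30 alternatives, but the direction of effects was not stable, and not all of these effects were small. Over the alternatives, vector log2 fold changes ran from -0.877 to 1.34 for Sqle and from -0.31 to 0.90 for Scd1. Between the sexes 1 of 8 was called (Srebf1), 2 by DESeq2 (with Scd1), 0 with the authors' normalized values, with no filter, with an age term, at 22 months, at 23 months or without empty vector replicates 3, 4 and 5, and 0 to 2 when single animals were left out. The cause was not tested, beyond fewer animals in the age and left-out fits. Vector log2 fold changes turned direction as follows. With voom: Srebf1 -0.012, Srebf2 -0.0821 and Sqle -0.0078. With upper-quartile scaling: Idi1 0.002. With an age term: Insig1 0.0044 and Idi1 0.004. At 22 months: Srebf1 -0.0399, Srebf2 -0.34, Hmgcs1 -0.0665, Sqle -0.88, Hsd17b7 0.51, Agpat9 0.0389 and Lpin1 0.21. At 23 months: Insig1 0.22, Idi1 0.23, Fdft1 -0.0308, Scd1 -0.31, Mbtps2 -0.0471, Npc1 -0.29 and Pcyt1a -0.0263. All Hand2 vector animals of 22 months shared a title set, and all those of 23 months shared the other. The empty vector animals of each age came from both sets. The vector effects within an age therefore also compare title sets, and the part of each was not tested. Without empty vector replicates 3, 4 and 5: Hmgcs1 -0.0113 and Hsd17b7 0.0124. With the title-set term: Srebf2 -0.006. Sex effects that turned were Sqle, at -0.15 with the age term, -0.19 at 22 months, -0.0651 at 23 months, -0.12 without the 3 animals and -0.12 with the title-set term. Also at 22 months Hmgcs1 was -0.0904 and Insig1 -0.0528, and without the 3 animals Fdft1 was -0.0054. Leaving out 1 animal gave vector ranges of -0.0776 to 0.0284 for Idi1, -0.13 to 0.048 for Insig1, -0.0536 to 0.34 for Scd1, -0.0743 to 0.60 for Sqle and -0.0694 to 0.10 for Srebf2, and sex ranges of -0.001 to 0.0797 for Fdft1 and -0.0886 to 0.46 for Sqle. No paired analysis was possible because replicate numbers follow accession order and mark no shared animal. Depth limits Sqle most, at 20 to 118 counts.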
